A study of Homo sapiens with 13 samples.

Results

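Small nucleolar RNAs (snoRNAs) and small Cajal body RNAs (scaRNAs) were examined in 9 RNA-seq libraries of MDA-MB-231, a human breast cancer cell line of the triple-negative kind. The members were chosen by name and by measured value: a gene symbol of the SNORD, SNORA or SCARNA series followed by a digit, and a normalized value of at least 10 in at least 3 of the 9 libraries. This left 65 members of the 372 rows with such a symbol, in a table of 38616 rows. Of the members, 24 were box C/D snoRNAs (of 149 rows), 34 were box H/ACA snoRNAs (of 189 rows) and 7 were scaRNAs (of 34 rows). The minimum was reached in all 9 libraries by 43 members. Some passed only with the libraries of a given group counted: 11 with those of sg2, 6 with those of sg1 and 5 with those of NTC, in sets that overlap. Just inside the minimum, SNORD63B stood at 13.5, 8.98 and 11.7 in sg1 and SNORD72 at 7.07, 8.43 and 13.1 in sg2. Just outside it, with 2 libraries at the minimum, SNORA2A stood at 7.07, 23.2 and 32.7 and SNORA2B at 4.42, 31.6 and 36.6 in sg2.

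snoRNAs are short nuclear RNAs that work as ribonucleoprotein particles in the nucleolus. Box C/D snoRNAs direct the 2′-O-methylation of ribosomal RNA through base pairing, box H/ACA snoRNAs direct the conversion of uridine to pseudouridine, and a few of both kinds are needed for the cleavage of the ribosomal RNA precursor instead. scaRNAs carry the same boxes and guide the modification of spliceosomal small nuclear RNAs (snRNAs) in Cajal bodies. In human cells most are cut out of introns of host genes, while the U3 snoRNA genes have promoters of their own. The mature forms end without a poly(A) tail.

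All cells came from stable lines made by infection with lentivirus and were labelled as passage 2. The first group, sg2, and the second, sg1, are 3 libraries each, labelled by genotype as KIAA1429 KO and, in the extraction text, as KIAA1429 KD. KIAA1429 is the older name of VIRMA, a scaffold protein of the complex that writes the mark N6-methyladenosine (m6A) into messenger RNA in the nucleus, and sg1 and sg2 come from the sample titles. The third group, NTC, is 3 libraries of the non-targeting control line. The labels are silent on whether cultures were separate within a group, so p-values here reflect the spread among libraries alone, and that spread may be technical. In addition, m6A immunoprecipitation (MeRIP-seq) has 1 pull-down and 1 input for KIAA1429 KD and for NTC. The RNA selection step of the RNA-seq libraries is not given in the sources at hand.

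The libraries held from 13975173 to 22051705 reads assigned to genes. VIRMA had normalized values of 1566, 1990 and 2170 in sg2, 1437, 1560 and 1613 in sg1, and 2196, 2122 and 2689 in NTC, so that every sg1 library lay below every NTC library while sg2 and NTC overlapped. Its log2 fold change was -0.60 ± 0.15 (SE) in sg1 (limma, adjusted p = 0.0718) and -0.30 ± 0.15 in sg2 (adjusted p = 0.236). Of the marker genes of the line, VIM, CD44, KRT18 and EGFR were present in every library at 2173 or more, while the summed value of ESR1, PGR, GATA3 and CDH1 ranged from 24.8 to 67.2. Before any result on the members, 2 libraries have to be named. sg2-1 stood apart from sg2-2 and sg2-3: a chi-square of read counts per gene was 95.3 and 100.2 between sg2-1 and the other two, against 4.92 between sg2-2 and sg2-3. The VIRMA value of sg2-1 lay within the sg1 range, and the labels do not allow a check of whether libraries were exchanged, so sg2 means, SDs and calls are given with this doubt. In sg1-3 a read was found for 121 of the 149 box C/D rows, against 61 to 79 in each other library.

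Together the members took 7.15, 32.7 and 43.1 of every 10000 gene reads in sg2, 7.32, 7.11 and 9.18 in sg1, and 14.4, 16.6 and 23.95 in NTC. All 3 sg1 libraries and sg2-1 lay below the lowest NTC library, and sg2-2 and sg2-3 lay above the highest. The mean was 27.7 ± 18.5 in sg2, 7.87 ± 1.14 in sg1 and 18.3 ± 5.0 in NTC (SD, n = 3 each), a ratio of 1.51 for sg2 over NTC, 0.430 for sg1 over NTC and 3.52 for sg2 over sg1. The sg2 SD exceeded the difference between sg2 and NTC. Over sg2-2 and sg2-3 alone the ratio to NTC was 2.07, and for sg2-1 alone it was 0.390. These sums carry no test, and in bulk RNA fewer cells that make an RNA and less of it per cell cannot be told apart.

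The 3 classes held different parts of this pattern. Box C/D members took 2.89, 11.6 and 13.9 of 10000 reads in sg2, 2.76, 2.64 and 3.25 in sg1, and 5.17, 6.08 and 9.30 in NTC. Box H/ACA members had the widest range, with 2.75, 17.6 and 25.4 in sg2, 2.79, 2.59 and 3.52 in sg1, and 6.27, 7.31 and 11.03 in NTC. scaRNAs had the narrowest, with 1.504, 3.52 and 3.85 in sg2, 1.77, 1.88 and 2.41 in sg1, and 2.95, 3.19 and 3.63 in NTC. For sg2-2 and sg2-3 over NTC the ratios were 1.86, 2.62 and 1.13 for box C/D, box H/ACA and scaRNA, and for sg1 over NTC they were 0.421, 0.362 and 0.620. The differences between the classes were not tested.

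**Figure D1:**
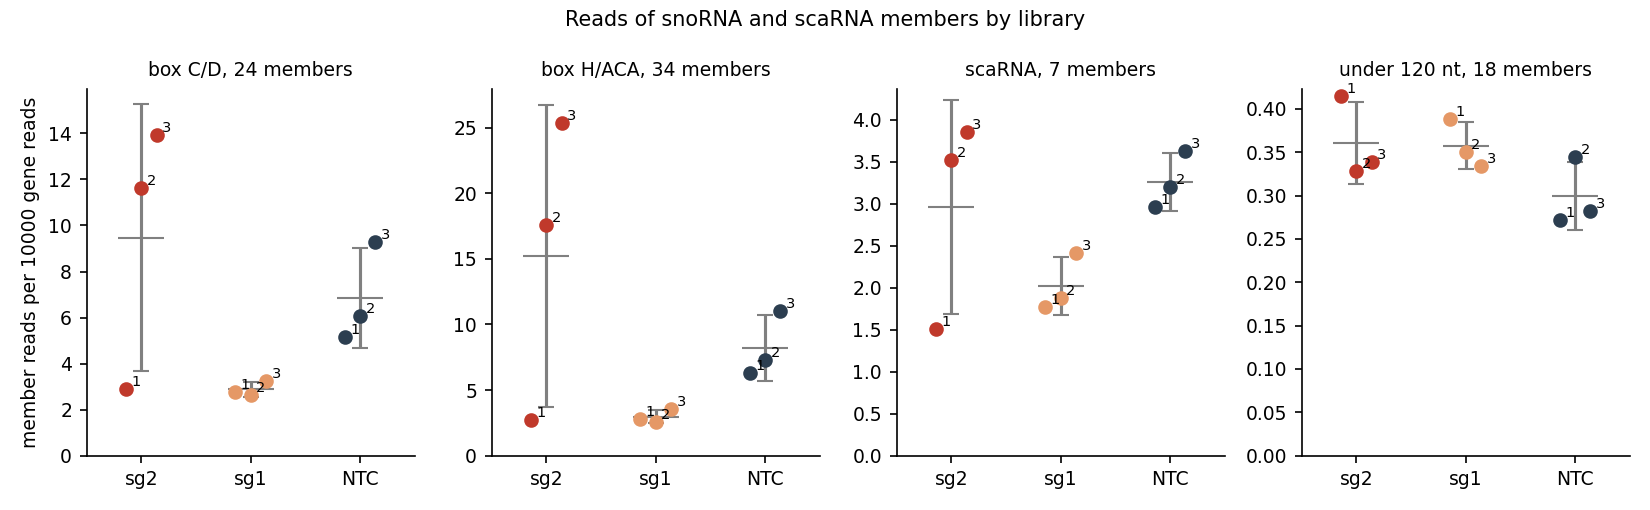
Reads of the members per 10000 gene reads (vertical axis, starting at 0) in sg2, sg1 and NTC, for box C/D, box H/ACA, scaRNA and, across classes, the 18 members shorter than 120 nt. Points are libraries with their number, bars are the mean and SD of 3 libraries. sg2-1 sits beside the sg1 libraries in the first 3 panels, and the short members lie between 0.272 and 0.415 in every library.

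A small number of RNAs made up most of these reads. SNORA73B, SNORD3A and SNORD17 together held 56.2%, 73.4% and 75.6% of the members' reads in sg2, 56.0%, 54.4% and 56.0% in sg1, and 63.6%, 63.4% and 67.9% in NTC. Without these 3 the other 62 members took 3.13, 8.71 and 10.5 of 10000 reads in sg2, 3.22, 3.24 and 4.04 in sg1, and 5.24, 6.08 and 7.68 in NTC, so that sg1 and sg2-1 again lay below NTC, and sg2-2 and sg2-3 above it. Per kb of length, on the scale of normalized values averaged over all 9 libraries, SNORA73B had the highest level (56504 per kb), followed by SNORD3A (27010), SNORD17 (16931), SCARNA7 (7812), SCARNA21 (6418) and SNORA53 (4599). This order was not that of every group: the mean per kb of SNORA53 was 8586 in sg2, 144 in sg1 and 5067 in NTC, and in sg1 SNORD17 (7699 per kb) stood above SNORD3A (6682 per kb). The lowest member with a length was SNORA19, at 71.1 per kb over all libraries.

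The first question was which members differ between sg1 and NTC. limma, fitted to log2(value + 1) of all 15965 rows at the minimum with the 3 groups in 1 model and Benjamini-Hochberg adjustment over them, called 0 of 65 members lower and 0 higher in sg1. It called 0.0814% of all tested genes lower and 0.113% higher. At an unadjusted p below 0.05, 17 members were lower and 1 was higher, or 26.2% and 1.54%, beside 17% and 12.8% of all tested genes. edgeR called 0 in either direction, and DESeq2 called 10 lower, beside 8.18% of all tested genes, and 0 higher. The values did separate: 31 members lay lower in every sg1 library than in any NTC library and 7 lay higher, or 47.7% and 10.8% of members, beside 29.4% and 22.9% of all tested genes. Among the 43 members at the minimum in all libraries these were 25 and 3. The median log2 difference was -0.42 over the members (-0.05 for box C/D, -0.79 for box H/ACA and -0.96 for scaRNA) and -0.01 over all tested genes.

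These counts depended on sg2-1, which shares its spread with all comparisons in the fit. Without it, limma called 27 members lower and 1 higher in sg1, beside 24.4% and 16.2% of all tested genes, and with the sg1 and NTC libraries alone it called 26 lower and 1 higher, beside 22.3% and 15.1%. Blocking the sg2 and sg1 libraries by replicate number, 5 members were lower, beside 4.25% of all tested genes: SCARNA13, SNORA53, SNORD15B, SCARNA21 and SNORD94. Of the 27 lower members, 7 were box C/D, 16 were box H/ACA and 4 were scaRNAs. The 1 higher member was SNORD63B, which reached the minimum in sg1-1, sg1-3 and sg2-1 only, so its selection already favoured sg1 over NTC. Among the 43 members that reached the minimum in all libraries, 23 were lower and 0 were higher without sg2-1. The labels state no pairing by replicate number, which was taken from correlations in these same data. sg2-1 was set apart after its values were seen. Calls and adjusted p-values with the block or without sg2-1, here and below, are therefore a description.

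The second question was which members differ between sg2 and NTC. Here 2 members rose, 3.08% of the members beside 4.19% of all tested genes, and 0 fell, beside 4.57%. At an unadjusted p below 0.05, 4 were higher and 0 lower, beside 13.6% and 12.5% of all tested genes. edgeR also called 2 higher (4.7% of all tested genes) and DESeq2 4 (8.76%), with 0 lower in both. The 2 were SNORD3B-2 and SNORA14B. SNORA14B reached the minimum in no NTC library and passed only through sg2 and sg1 libraries, so that its selection already favoured sg2; among the 43 members at the minimum in all libraries, 1 was called. Groups that did not overlap were seen for 4 members with sg2 above NTC (13.6% of all tested genes) and for 1, SNORA5A, with sg2 below NTC (14.3%). Without sg2-1, 25 members were higher in sg2-2 and sg2-3 (4 box C/D, 18 box H/ACA and 3 scaRNAs), or 38.5% beside 26% of all tested genes, and 0 were lower. The same NTC libraries serve both comparisons.

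The third question was whether the sg2 and sg1 lines differ from each other. Between sg2 and sg1, 9 members were higher in sg2, 13.8% beside 18.3% of all tested genes, and 0 were lower, beside 11.5%. They were SNORD3A, SNORD3B-2, SNORD15B, SNORD46, SNORD67, SNORA71A, SNORA71C, SNORA74B and SNORA74D. Of the 43 members at the minimum in all libraries, 7 were higher and 0 lower. SNORD67 reached the minimum in no sg1 library, so its selection already favoured sg2. At an unadjusted p below 0.05, 25 members were higher and 0 lower, beside 26.1% and 20.4% of all tested genes. edgeR called 19 higher (17.8% of all tested genes), DESeq2 25 (21.9%) and both 0 lower. Groups did not overlap for 13 members with sg2 higher (23.7% of all tested genes) and for 1, SNORD14E, with sg2 lower (18.2%). Blocked by replicate number, 24 were higher, beside 22.5%. Without sg2-1, 40 were higher and 2, SNORD63B and SNORD69, were lower, beside 34.2% and 28.6% of all tested genes. Both lower members reached the minimum only in sg1 libraries and sg2-1, and over the 43 members at the minimum in all libraries 30 were higher and 0 lower. Fitted to the sg2 and sg1 libraries alone, the count was 0 in both directions, with 16 higher and 0 lower at an unadjusted p below 0.05.

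Member by member, 27 of 65 lay below all NTC libraries in each sg1 library and in sg2-1, which 24% of all tested genes did, and 37 lay above all NTC libraries in both sg2-2 and sg2-3, which 36.8% did. Both held for 18 members, or 27.7%, and for 13.1% of all tested genes. The 18 were SNORD3A, SNORD17, SNORA12, SNORA22, SNORA22C, SNORA23, SNORA49, SNORA53, SNORA71A, SNORA71D, SNORA73B, SNORA74A, SNORA74B, SNORA75, SNORA79B, SCARNA1, SCARNA7 and SCARNA22. These positions are a description of the libraries, since sg2-1 was set apart after its values were seen.

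**Figure D2:**
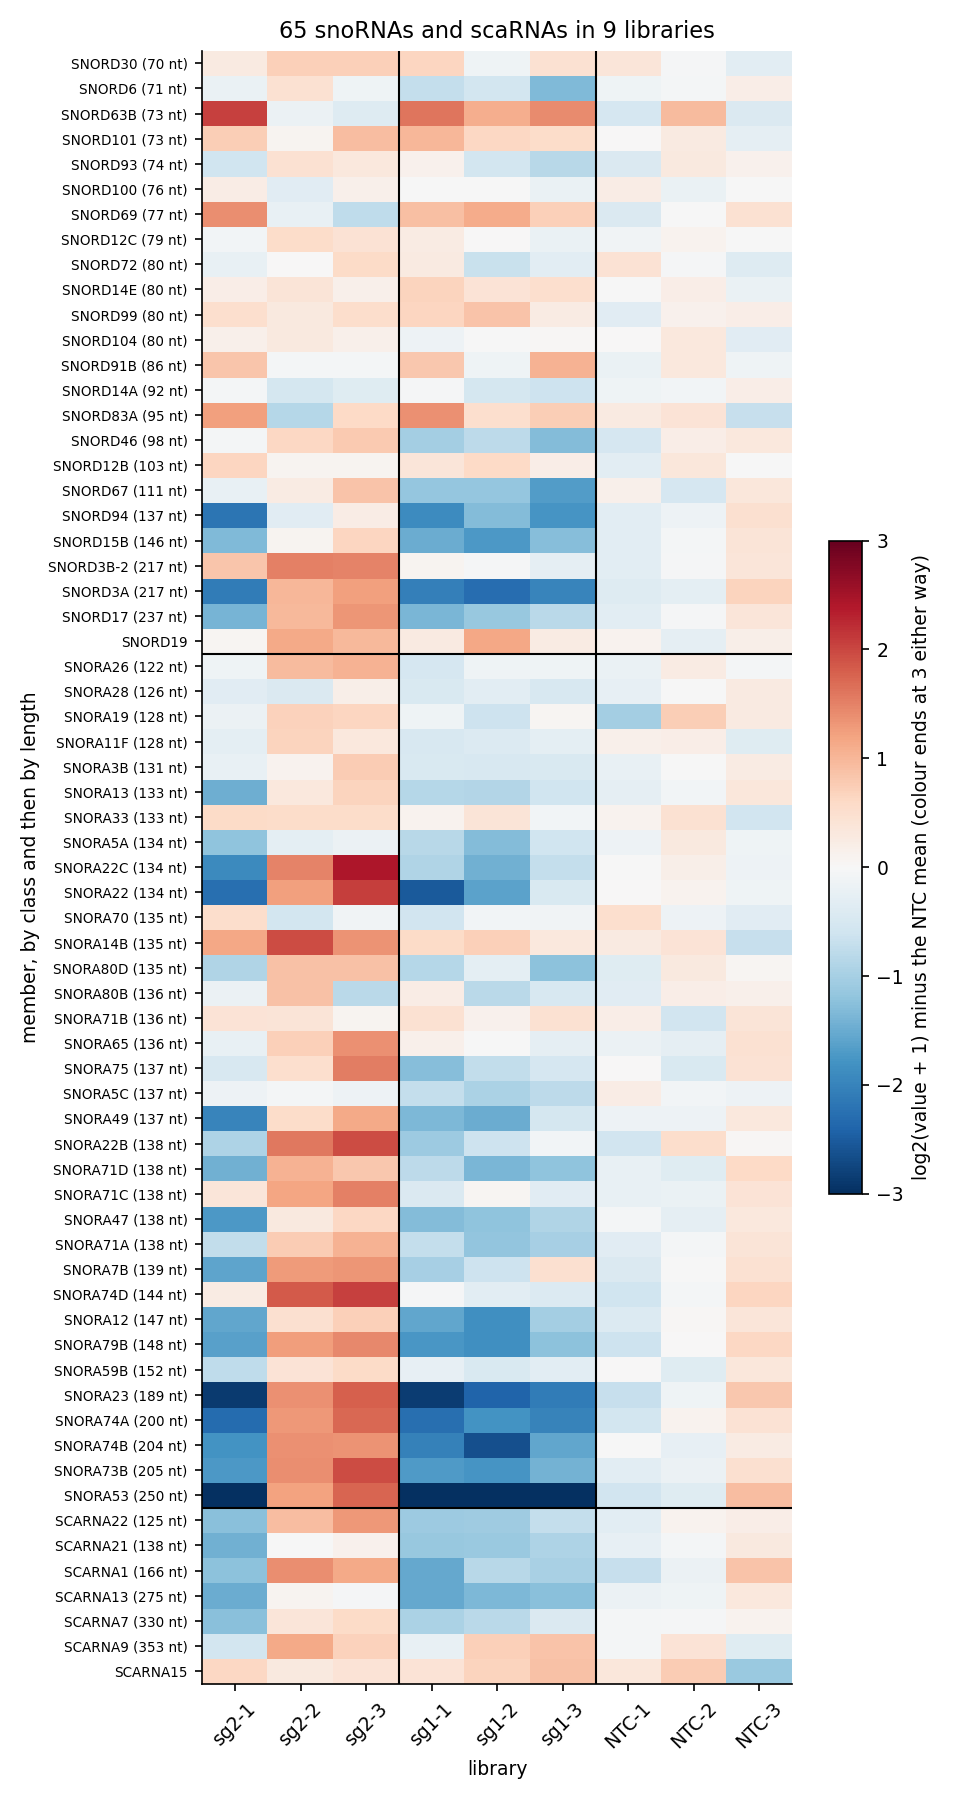
Each of the 65 members (rows, by class from box C/D at the top to scaRNA, then by length) in the 9 libraries (columns). Colour is log2(value + 1) minus the mean of the NTC libraries, red for higher and blue for lower, ending at 3 either way. The columns sg2-1 and sg1-1 to sg1-3 are blue for most members of 120 nt or more, and sg2-2 and sg2-3 are red. Most short box C/D rows at the top do not show this order. Among them, SNORD6, SNORD46 and SNORD67 are blue in sg1, and SNORD63B, SNORD69 and SNORD83A are red in sg1 and sg2-1.

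Among the RNAs that act in cleavage of the ribosomal RNA precursor, SNORD3A, a gene for the U3 snoRNA of the small-subunit processome, lies on chromosome 17 from 19188016 to 19188232 (GRCh38) in no other named gene. Its normalized values were 1459, 12503 and 14603 in sg2, 1493, 1271 and 1587 in sg1, and 4754, 5108 and 9974 in NTC. sg1 lay wholly below NTC, whereas sg2 held values on both sides of it. Its log2 fold change was 2.16 ± 0.72 in sg2 against sg1 (adjusted p = 0.0479), -2.11 ± 0.72 in sg1 against NTC (adjusted p = 0.105; 0.000105 without sg2-1) and 0.05 ± 0.72 in sg2 against NTC (adjusted p = 0.976; log2 1.12 and adjusted p = 0.00615 without sg2-1).

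A second U3 gene, SNORD3B-2, lies on the same chromosome from 19063920 to 19064136 and did not follow the first. It stood at 569, 912 and 897 in sg2, at 336, 313 and 262 in sg1, and at 254, 313 and 408 in NTC. All sg2 libraries lay above all others, sg2-1 among them, and sg1 overlapped NTC. It rose by 1.28 ± 0.22 on the log2 scale in sg2 against NTC (adjusted p = 0.00904) and by 1.36 ± 0.22 in sg2 against sg1 (adjusted p = 0.0131), with -0.08 ± 0.22 in sg1 against NTC (adjusted p = 0.827). The U3 genes are near-identical copies, and no source at hand says how reads that fit several copies were counted, so the split of reads between SNORD3A and SNORD3B-2 is uncertain.

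SNORA73B, the most abundant member, is one of the vertebrate box H/ACA RNAs also called U17 or E1, which act in 18S rRNA formation rather than in pseudouridylation. It lies on chromosome 1 from 28508558 to 28508762, inside both SNHG3 and RCC1. Its values were 2916, 25155 and 37325 in sg2, 2930, 2788 and 3569 in sg1, and 7712, 8463 and 13390 in NTC. The 3 sg1 libraries and sg2-1 all lay below NTC, and sg2-2 and sg2-3 averaged 3.17 times the NTC mean. The difference of sg2 from sg1 was 2.18 ± 0.75 on the log2 scale with an adjusted p of 0.0517 in limma, which missed the threshold (0.0171 with the replicate block). In sg1 against NTC it was -1.63 ± 0.75 (adjusted p = 0.175; 0.000227 without sg2-1). A member in the same line of work did not share this: SNORD14E, a copy of the U14 snoRNA that both guides methylation and acts in 18S rRNA formation, stood at 22.99, 26.4 and 22.2 in sg2, 32.1, 27.0 and 28.6 in sg1, and 19.8, 23.3 and 17.3 in NTC. All its sg1 values lay above all others, with a log2 fold change of 0.52 ± 0.24 over NTC (adjusted p = 0.18). Another U14 copy among the members, SNORD14A, did not share this rise. Its log2 fold change in sg1 against NTC was -0.39 ± 0.29 (adjusted p = 0.369), and the groups overlapped. The counting of reads that fit several copies is not given, so the split between SNORD14E and SNORD14A is uncertain.

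The other abundant box C/D members guide 2′-O-methylation. SNORD17, a 237 nt guide for 28S rRNA in the span of SNX5 (chromosome 20, from 17962710 to 17962946), stood at 1477, 7563 and 9760 in sg2, 1499, 1760 and 2215 in sg1, and 3096, 3797 and 4946 in NTC. SNORD15B, a 28S rRNA guide in the ribosomal protein gene RPS3 (chromosome 11, from 75404421 to 75404566), stood at 83.1, 224 and 330.5 in sg2, 74.6, 62.9 and 87.1 in sg1, and 168, 203 and 275 in NTC. In both, sg1 lay below NTC without overlap, and sg2-1 lay below NTC as well, among the sg1 values for SNORD15B and just below them for SNORD17. SNORD15B was higher in sg2 than in sg1 by 1.30 ± 0.43 (adjusted p = 0.0451) and differed by -1.496 ± 0.43 in sg1 against NTC (adjusted p = 0.0845; 0.0452 with the block). SNORD17 reached 1.41 ± 0.57 between sg2 and sg1 (adjusted p = 0.0824; 0.0201 with the block).

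SNORD46, a 98 nt RNA, was one of the 2 short box C/D members called between sg2 and sg1. It stood at 61.0, 99.1 and 111 in sg2, 31.1, 36.7 and 25.3 in sg1, and 44.3, 72.8 and 80.2 in NTC. Its sg2-1 value lay inside the NTC range and above all sg1 values. The differences were 1.48 ± 0.30 for sg2 against sg1 (adjusted p = 0.0179) and -1.03 ± 0.30 for sg1 against NTC (adjusted p = 0.0869). The other, SNORD67, a 111 nt guide for the U6 snRNA in CKAP5 (chromosome 11, from 46762389 to 46762499), stood at only 8.84, 12.6 and 19.6 in sg2, 4.14, 4.08 and 2.60 in sg1, and 11.7, 7.08 and 13.6 in NTC. It was higher in sg2 than in sg1 by 1.63 ± 0.43 (adjusted p = 0.0249), again without overlap. SNORD67 reached the minimum in NTC-1, NTC-3, sg2-2 and sg2-3 and in no sg1 library, so its selection already favoured sg2 over sg1.

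Several short box C/D members went the other way or stayed level. SNORD104, an 80 nt RNA in SNHG25, stood at 126, 137 and 124 in sg2, 101.5, 112 and 116 in sg1, and 113, 141 and 88.9 in NTC, and SNORD12B, a 103 nt RNA in ZFAS1, at 99.0, 67.4 and 66.6 in sg2, 81.8, 96.4 and 72.8 in sg1, and 50.2, 79.9 and 62.9 in NTC. Neither was called in any comparison (adjusted p of 0.284 or more). In sg1 the 7 members that lay above every NTC library were all box C/D: SNORD14E, SNORD19, SNORD63B, SNORD69, SNORD83A, SNORD99 and SNORD101. They were 10.8% of the members and 29.2% of box C/D members, beside 22.9% of all tested genes. Of the 43 members at the minimum in all libraries, 3 were among them. SNORD19, SNORD63B, SNORD69 and SNORD83A reached the minimum in no NTC library, so they were members only through sg1 and sg2 values. The largest difference among them was that of SNORD63B, at 18.6, 3.16 and 2.61 in sg2, 13.5, 8.98 and 11.7 in sg1, and 2.33, 8.09 and 2.47 in NTC. These are low values, and the difference was 1.37 ± 0.68 on the log2 scale, given as a description.

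The box H/ACA members held the widest contrasts. SNORA53, a 250 nt RNA in the span of SLC25A3, which encodes a mitochondrial phosphate carrier, lies on chromosome 12 from 98599635 to 98599884. Its values were 18.6, 2626 and 3795 in sg2, 15.5, 37.6 and 55.2 in sg1, and 756, 881 and 2163 in NTC. The NTC mean was 35.1 times the sg1 mean, and within sg2 the first library lay with sg1 while the other two lay above all NTC libraries. Its log2 difference of -5.10 ± 1.62 in sg1 against NTC was the lowest of all 15965 tested genes, and that of 4.14 ± 1.62 in sg2 against sg1 the highest, yet neither passed in the fit of all libraries (adjusted p = 0.0965 and 0.0744). With the block they did (adjusted p = 0.0425 and 0.014), as they did without sg2-1 (3.77e-05 and 2.78e-06). The pairing and the doubt about sg2-1 came from these same data, so these adjusted p-values are a description.

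SNORA74A, inside both SNHG4 and MATR3, stood at 73.4, 904 and 1224 in sg2, 75.6, 105 and 90.96 in sg1, and 252, 395 and 497 in NTC. SNORA23, in IPO7, stood at 40.7, 788 and 1054 in sg2, 41.4, 57.2 and 70.8 in sg1, and 190, 281 and 532 in NTC. SNORA12, in CWF19L1, and SNORA49, in EP400, had sg1 means of 188 ± 56 and 152 ± 58 against NTC means of 522 ± 138 and 323 ± 66 (SD, n = 3 each). All 4 had sg1 below NTC without overlap and sg2-1 below NTC as well. None was called in limma; with the block SNORA74A, SNORA23 and SNORA12 were higher in sg2 than in sg1 (adjusted p from 0.0194 to 0.0242).

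SNORA74D and SNORA14B departed from this order. SNORA74D, 144 nt long and also inside SNHG4 and MATR3, stood at 46.9, 141 and 166 in sg2, 38.3, 31.0 and 29.2 in sg1, and 25.7, 37.4 and 61.7 in NTC, with sg1 and sg2-1 within the NTC range. It was higher in sg2 than in sg1 by 1.63 ± 0.46 (adjusted p = 0.0304), with 1.38 ± 0.46 over NTC (adjusted p = 0.0932). SNORA14B, 135 nt long in TOMM20, stood at 15.9, 28.5 and 18.3 in sg2, 10.4, 11.4 and 8.45 in sg1, and 8.17, 9.10 and 3.70 in NTC. It rose by 1.49 ± 0.40 in sg2 against NTC (adjusted p = 0.0482), close to the threshold, on few reads and with its selection resting on sg2 and sg1 values. The SNORA74 and SNORA71 genes are families of similar copies, so reads may be divided among them in a way the table does not show.

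Of the scaRNAs, SCARNA7 guides 2′-O-methylation of the U1 snRNA and lies in KPNA4. It stood at 1204, 3740 and 4290 in sg2, 1493, 1641 and 2145 in sg1, and 2757, 2803 and 3126 in NTC. SCARNA13, a box H/ACA scaRNA in SNHG10, stood at 437, 1291 and 1197 in sg2, 416, 474 and 513 in sg1, and 1085, 1105 and 1504 in NTC, and SCARNA21, in CHD3, at 427, 1135 and 1250 in sg2, 523, 535 and 603 in sg1, and 979, 1100 and 1419 in NTC. sg1 lay below NTC without overlap in all 3. In sg2-2 and sg2-3, however, SCARNA13 and SCARNA21 were within the NTC range, with means 1.01 and 1.02 times that of NTC, whereas SCARNA22, in NSD2, reached 2.16 times the NTC mean. In sg1 against NTC the log2 difference was -1.38 ± 0.35 for SCARNA13 (adjusted p = 0.0734; 0.0425 with the block) and -1.06 ± 0.34 for SCARNA21 (adjusted p = 0.099; 0.0479 with the block). SCARNA9, which guides modification of the U2 snRNA, and SCARNA15 overlapped between all groups, with adjusted p of 0.327 or more in all 3 comparisons. The gene ID given for SCARNA15 carries no current symbol, so its identity is uncertain.

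Length and class nearly coincided, since every box H/ACA member and every scaRNA with a length had 120 nt or more. RefSeq gave a length for 63 of them. The 45 members of 120 nt or more took 6.71, 32.4 and 42.8 of 10000 reads in sg2, 6.91, 6.74 and 8.82 in sg1, and 14.1, 16.2 and 23.7 in NTC. The 18 members under 120 nt, which were all box C/D, took 0.415, 0.329 and 0.338 in sg2, 0.388, 0.351 and 0.334 in sg1, and 0.272, 0.344 and 0.282 in NTC, with none of the order seen in the longer ones. Of the long members, 28 (62.2%) lay below NTC without overlap in sg1 and 0 above it. Of the short members, 3 (16.7%) lay below and 6 (33.3%) above. Over all tested genes 29.4% lay below and 22.9% above. Among the 6, SNORD63B, SNORD69 and SNORD83A reached the minimum in no NTC library. The 5 box C/D members of 120 nt or more took 2.47, 11.3 and 13.6 of 10000 reads in sg2, 2.36, 2.28 and 2.91 in sg1, and 4.89, 5.73 and 9.01 in NTC, with sg1 and sg2-1 below NTC as for box H/ACA. SNORD3A and SNORD17 made up most of that sum, and SNORD3B-2 did not follow it. The median log2 difference in sg1 against NTC was -0.84 for the long members and 0.17 for the short ones, and in sg2 against sg1 it was 1.03 and 0.08. The value of 120 nt was set after these values were seen, so the split is a description.

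Within the box H/ACA class, where lengths run from 122 to 250 nt, length and the log2 difference of sg1 from NTC had a Pearson r of -0.84 and a Spearman rho of -0.55 across the 34 members. The longest of these, SNORA53, also had the lowest difference. Over all 63 members with a length, r was -0.47 and rho -0.59. The longest of all, the scaRNAs SCARNA9 (353 nt) and SCARNA7 (330 nt), had differences of 0.45 and -0.73. The level was tied to the difference too: across the box H/ACA members log2 of the mean value and the same difference had r = -0.68 and rho = -0.67. These are across genes that share libraries, and length and level cannot be told apart here. Rows below the minimum reach it in fewer than 3 libraries by definition, so a row at the minimum in all NTC libraries could not be among them. They cannot show whether the order holds outside the members. The 307 rows took 0.270, 0.212 and 0.279 of 10000 reads in sg2, 0.300, 0.242 and 0.348 in sg1, and 0.176, 0.218 and 0.213 in NTC. Of these rows, the 85 of 120 nt or more took 0.106, 0.121 and 0.165 in sg2, 0.115, 0.100 and 0.122 in sg1, and 0.0892, 0.111 and 0.115 in NTC, with sg1 and NTC overlapping. Here sg2-2 and sg2-3 lay above all NTC libraries, and sg2-1 lay within the NTC range.

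**Figure D3:**
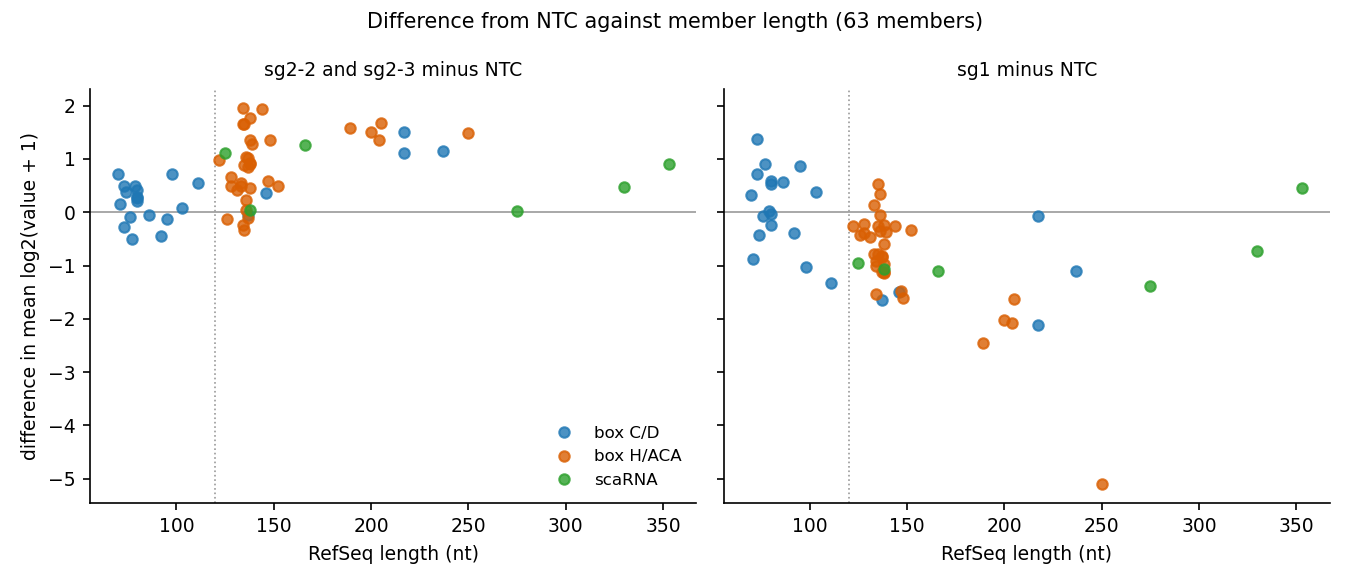
Difference in mean log2(value + 1) from NTC (vertical axis) against RefSeq length in nt (horizontal axis) for the 63 members with a length, in sg2-2 and sg2-3 (left) and in sg1 (right). Each point is a member, coloured by class, and the dotted line marks 120 nt. In sg1 most points to the right of the line lie below 0, down to -5.10 for SNORA53, while the longest member, SCARNA9, lies at 0.45. In sg2-2 and sg2-3 most points lie above 0.

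The genes around the members were compared with them. Of the members, 61 lay inside the span of another named gene, and 59 had exactly 1 such gene among the tested symbols that stand on a single row, 51 genes in all. In sg1 against NTC the member and its containing gene had the same sign in 31 of 59 pairs, and in sg2 against NTC and sg2 against sg1 in 40 of 59. Across the 59 pairs the 2 log2 differences had a Pearson r of -0.08 in sg1 against NTC, 0.25 in sg2 against NTC and -0.10 in sg2 against sg1, as a description. limma called 0 of the containing genes in sg1 against NTC, 5 higher and 1 lower in sg2 against NTC, and 28 higher and 3 lower in sg2 against sg1. Over all tested genes 4.19% were higher and 4.57% lower in sg2 against NTC, and 18.3% and 11.5% in sg2 against sg1. SLC25A3, around SNORA53, stood at 10057, 14621 and 13763 in sg2, 8391, 8350 and 7774 in sg1, and 10457, 10516 and 10424 in NTC, a log2 difference of -0.36 in sg1 where SNORA53 had -5.10.

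Of the containing genes, SNHG17 and RPS12 held the most members. SNHG17, a noncoding host of 4 SNORA71 members, stood at 645, 407 and 367 in sg2, 434, 419 and 355 in sg1, and 245, 277 and 222 in NTC, above NTC in all sg2 and sg1 libraries (log2 0.89 in sg2, adjusted p = 0.0276, and 0.70 in sg1, adjusted p = 0.087). Its 4 members ran from -1.12 (SNORA71D) and -0.97 (SNORA71A) to -0.24 (SNORA71C) and 0.35 (SNORA71B) in sg1 against NTC, none past the threshold. RPS12, which encodes a protein of the small ribosomal subunit, stood at 7177, 16969 and 17825 in sg2, 6356, 5913 and 6075 in sg1, and 12341, 12465 and 14234 in NTC. Of the 3 members in its span, the 73 nt SNORD101 stood at 35.4, 22.1 and 40.5 in sg2, 42.4, 32.7 and 31.2 in sg1, and 21.0, 25.3 and 17.3 in NTC, opposite to its host in sg1 and sg2-1. SNORA33 and SNORD100 of the same gene had sg1 values that overlapped NTC.

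**Figure D4:**
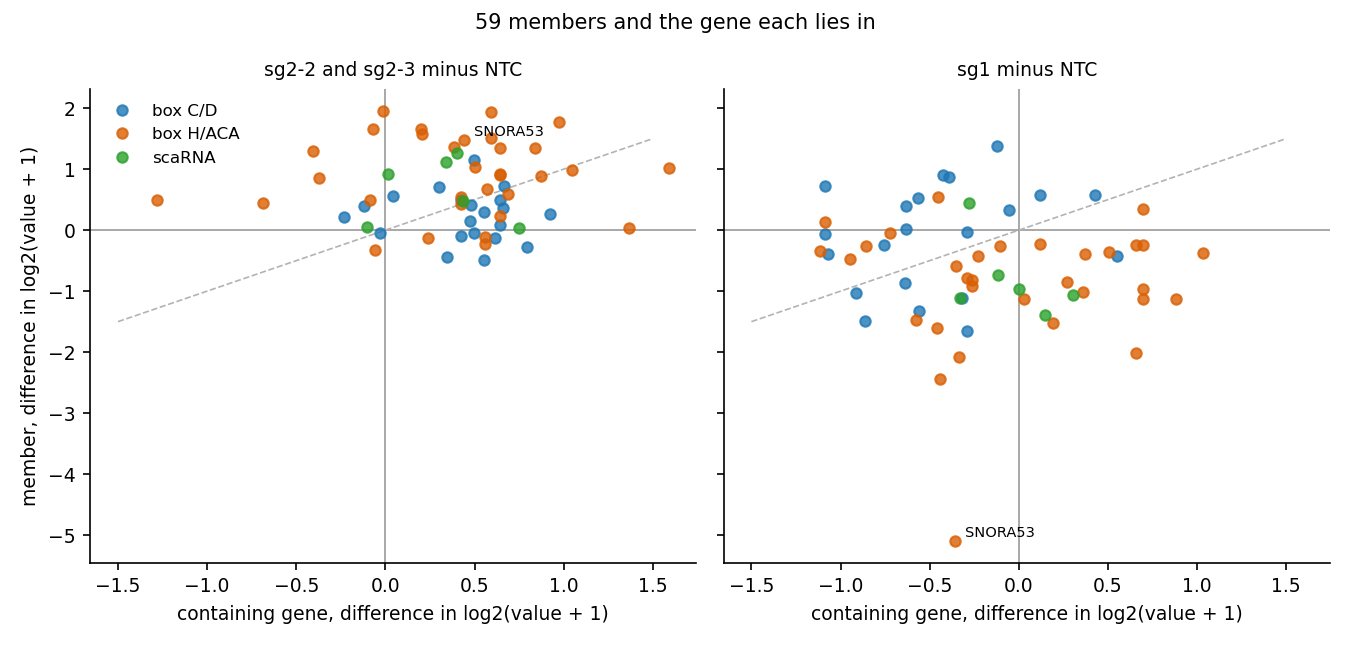
Each of 59 members (vertical axis) against the gene it lies in (horizontal axis), both as a difference in log2(value + 1) from the NTC mean, in sg2-2 and sg2-3 (left) and in sg1 (right). Points are members coloured by class and the dashed line marks equal differences. In sg1 the members spread from -5.10 to 1.37 while their containing genes lie between -1.12 and 1.04.

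The proteins of the particles were followed as a list. Of the box C/D core proteins, NOP56, NOP58 and SNU13 were measured. Of these, 1 rose in sg2 against NTC, beside 4.19% of all tested genes. All 3 were higher in sg2 than in sg1, beside 18.3% of all tested genes, and 0 were called in sg1 against NTC. NOP56, a scaffold of the particle, stood at 4054, 4560 and 4871 in sg2, 3016, 3367 and 3228 in sg1, and 2748, 3034 and 2490 in NTC, and rose by 0.71 on the log2 scale in sg2 (adjusted p = 0.00821). Of the 4 box H/ACA core proteins, 1 rose in sg2 against NTC and 3 were higher in sg2 than in sg1, beside the same shares of all tested genes. DKC1, the pseudouridine synthase dyskerin, stood at 2151, 3568 and 3988 in sg2, 1520, 1743 and 1595 in sg1, and 1543, 1678 and 1401 in NTC, with log2 1.03 over NTC (adjusted p = 0.015). GAR1, NHP2 and NOP10 had 0.79, 0.53 and 0.52 over NTC without passing. In sg2-1 both DKC1 and NOP56 lay above all NTC libraries, where SNORA73B and SNORD3A lay below them.

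Among 12 measured assembly factors, 2 rose in sg2 against NTC, 6 were higher in sg2 than in sg1 and 0 were called in sg1 against NTC. Over all tested genes 4.19% rose and 4.57% fell in sg2 against NTC, and 18.3% were higher in sg2 than in sg1. NOLC1, a nucleolar chaperone of these particles, had a log2 difference of 0.68 in sg2 over NTC (adjusted p = 0.0199) and ZNHIT6, an assembly factor for box C/D particles, 0.58 (adjusted p = 0.0438). Among 10 measured genes for end processing and turnover of snoRNAs, 1 fell in sg2 against NTC, the 5′ exonuclease gene XRN1 (-0.49, adjusted p = 0.0207), 6 were higher in sg2 than in sg1 and 0 were called in sg1. The medians of these lists in sg1 against NTC were -0.13 (box C/D core), -0.21 (box H/ACA core), -0.26 (assembly) and -0.26 (processing), beside -0.01 over all tested genes.

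Other RNA lists moved between libraries together with the members, and their part in the result was not tested. The 18 snRNA genes took 0.583, 3.56 and 4.38 of 10000 reads in sg2, 0.628, 0.576 and 0.921 in sg1, and 1.75, 1.89 and 2.92 in NTC. The 11 RNAs of RNA polymerase III and of RNase P and MRP took 24.4, 69.0 and 53.4 in sg2, 20.6, 14.2 and 17.9 in sg1, and 41.6, 59.4 and 70.9 in NTC. The 44 replication-dependent histone genes, whose mRNAs end in a stem-loop in place of a poly(A) tail, took 45.6, 109 and 108 in sg2, 38.1, 33.3 and 36.1 in sg1, and 61.5, 60.7 and 77.4 in NTC. In each list the sg1 libraries and sg2-1 lay below NTC, and in the snRNA and histone lists sg2-2 and sg2-3 lay above it.

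Tested members of these lists gave the same directions. In sg2 against sg1, 6 of 11 snRNA genes, 3 of 7 polymerase III, RNase P and MRP RNAs and 27 of 30 histone genes were higher and 0 were lower. Over all tested genes 18.3% were higher and 11.5% lower. In sg1 against NTC 0 were called, with 7, 3 and 26 lower at an unadjusted p below 0.05, beside 17% of all tested genes. Examples are RNU5B-1, a U5 snRNA gene, at 49.5, 224 and 260 in sg2, 22.8, 30.2 and 40.3 in sg1, and 79.4, 89 and 170 in NTC, and RN7SL2, an RNA of the signal recognition particle, at 33486, 122655 and 93734 in sg2, 28375, 20008 and 24336 in sg1, and 68398, 95076 and 119484 in NTC. RN7SL2 made up most of the summed value of its list in every library, such as 33486 of 35507 in sg2-1. The order of that list's sum is therefore largely that of RN7SL2. The 5 nuclear long noncoding RNAs ran the opposite way, with 45.7, 11.7 and 11.55 of 10000 reads in sg2, 92.97, 83.0 and 87.8 in sg1, and 22.1, 24.5 and 24.9 in NTC. Of the 4 tested, 3 were lower in sg2 than in sg1, among them NEAT1, the backbone of paraspeckles (-3.06, adjusted p = 0.0228), and MALAT1, a nuclear speckle RNA (-1.71, adjusted p = 0.0122).

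**Figure D5:**
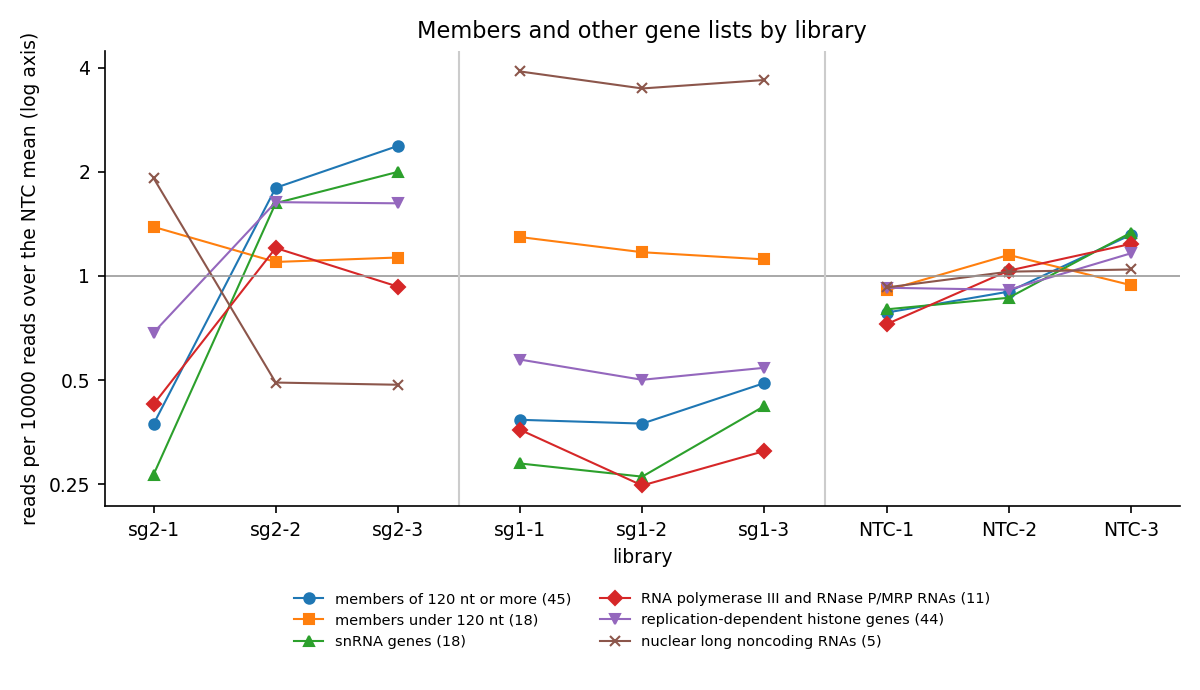
Reads per 10000 gene reads of 6 gene lists in each library, divided by the mean of the NTC libraries (log axis), for sg2, sg1 and NTC from left to right. Lines join the libraries of a group. Members of 120 nt or more, snRNA genes, RNA polymerase III RNAs and histone genes lie below 1 in sg2-1 and the sg1 libraries, members under 120 nt stay near 1, and nuclear long noncoding RNAs lie above 1 there.

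The MeRIP-seq summit lists held nothing inside the members. The KD list has 5923 summits and the NTC list 8377, each from 1 pull-down, and 0 of the 63 members with a known span had a summit in either list, also when 100 nt were added on both sides. For this assay mRNA was isolated and then fragmented, per the labels' protocols, and the depth of these libraries is unknown here, so the count shows only that no summit was called at these places.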

How the data were processed

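RNA-seq libraries of MDA-MB-231 cells (sg2, sg1 and NTC, 3 each) and 2 MeRIP-seq summit lists were used. Per the submitters' processing notes, the build was hg38 and the tools were STAR, HTSeq, MACS2, DESeq2, cutadapt and FastQC 0.11.8, with no role or setting stated. Strand and the handling of reads that fit several copies are not given in the sources used here. The authors deposited gene values as a normalized signal, that is, read counts over 1 factor per library. All values above 0 (100%) came within 0.1 read of a whole multiple of that factor, and reads were recovered from it. In NTC-2 the step, 1.01, is near 1, so its recovery is less certain. Each summit in the lists the authors deposited has a −log10 score, which was not used.

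limma 3.58.1 in R 4.3.3 with a trended prior variance was run on log2(value + 1) of the 15965 rows with a value of at least 10 in at least 3 libraries; adjusted p is Benjamini-Hochberg over them, called at 0.05. Fold changes on this scale understate low genes. Alternatives were DESeq2 1.42.0 and edgeR 4.0.16, both on recovered reads, other pseudocounts, no filter, TMM scaling, 2-group fits, a replicate block and leaving out each library; leaving out sg1-3 and sg2-1 together was added after seeing the data. Only the limma fit of sg1 against NTC was tested on simulated counts. These were drawn without a library that stood apart as sg2-1 did, so that test does not cover its spread. The other fits were not tested in this way. Same-numbered sg2 and sg1 libraries deviated together (correlations of 0.219, 0.156 and 0.258), those of sg2 or sg1 with NTC did not (-0.130 to 0.020), so the numbers were taken to pair sg2 with sg1. The labels do not state such a pairing.

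Members, gene lists and the naming rule were chosen with earlier results of these data known. Named are VIRMA, the 6 most abundant members of each class, members with a listed role, up to 4 members per direction and comparison that passed without overlap, core proteins, hosts of at least 4 members, and up to 4 genes of each other list; RPS12, SLC25A3 and the members that the text names outside this rule, such as SNORD63B, SNORD101, SNORA5A and the SNORA71 genes, were named after their values were seen. Positions and lengths are those of RefSeq on GRCh38.p14, matched by symbol and gene ID, without strand or exons. For 11 members the symbol stands on more than 1 row, and values are those of the row at the minimum. The gene IDs of 2 members, SNORD19 and SCARNA15, carry another current symbol or none. The names used for these are the deposited ones. SNORA73A, SNORD118, SNORD13, SNORD22, SNORD14C, SNORD14D, SCARNA2, SCARNA5 and SCARNA6 were not analysed here.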

Additional observations from a re-analysis of the deposited data

Results flagged for a closer look

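Between sg2 and sg1 the test of the difference itself was passed by 6 of the named members, all higher in sg2 (limma, adjusted p below 0.05 over all tested genes). Of all 65 members 9 passed, or 13.8%, beside 18.3% of all tested genes. The naming rule took in members that passed this test without overlap, so the count of 6 is partly set by that rule. Fitted to the sg2 and sg1 libraries alone, 0 members passed. On the log2 scale the difference was 2.16 for SNORD3A, 1.36 for SNORD3B-2, 1.30 for SNORD15B, 1.48 for SNORD46, 1.63 for SNORD67 and 1.63 for SNORA74D. This is also the difference between the contrasts of sg2 and sg1 with NTC. For SNORD3A and SNORD15B sg2-1 lay within the range of sg1, and sg2-2 and sg2-3 lay above it. For SNORD3B-2, SNORD46, SNORD67 and SNORA74D all 3 sg2 libraries lay above all sg1 libraries. SNORD67 reached the minimum in no sg1 library and was a member only with sg2 values counted, so its selection already favoured sg2.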

How the results depend on the processing

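Counts of called members moved most when sg2-1 was left out. Of the 65 members limma called 0 lower and 0 higher in sg1 against NTC, 0 lower and 2 higher in sg2 against NTC, and 0 lower and 9 higher in sg2 against sg1. When single libraries were left out, these ran from 0 to 27 lower and 0 to 1 higher in sg1, from 0 to 25 higher in sg2, and from 0 to 2 lower and 0 to 40 higher in sg2 against sg1. The upper ends (27, 1, 25, 2 and 40) are those without sg2-1, beside 24.4%, 16.2%, 26%, 28.6% and 34.2% of all tested genes. Without any one sg1 library, sg2-2 or sg2-3, the 9 became 0, and without NTC-1, NTC-2 or NTC-3 they became 5, 4 and 5. Over all 15965 tested genes the 2919 higher became 4 to 53 in the former fits and 1918 to 2219 in the latter. Without sg1-3 and sg2-1, chosen after seeing the data, there were 27 lower and 1 higher in sg1, 30 higher in sg2, and 2 lower and 38 higher in sg2 against sg1. Of all tested genes that fit called 3903 lower and 2654 higher in sg1 and 4559 higher in sg2. In sg2 against sg1 it called 4628 lower and 5585 higher.

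With 2 groups only in the fit, 26 were lower and 1 higher in sg1, 1 was higher in sg2 and 0 in sg2 against sg1. Of all tested genes these fits called 3568, 2410, 285 and 0. edgeR called 19 higher in sg2 against sg1, beside 17.8% of all tested genes. DESeq2 called 10 lower in sg1, 4 higher in sg2 and 25 higher in sg2 against sg1, beside 8.18%, 8.76% and 21.9%. A pseudocount of 0.5, no filter and the replicate block over all libraries each left 1 higher in sg2, and that block gave 18 higher in sg2 against sg1. Of all tested genes these fits called 665, 409 and 482 higher in sg2, and that block 2653 in sg2 against sg1. The replicate block in the sg2 and sg1 libraries gave 5 lower in sg1 and 24 higher in sg2 against sg1, beside 4.25% and 22.5% of all tested genes. The cause of these moves was not tested.

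The ratio of member reads in sg1 over NTC was 0.430 and ran from 0.388 without NTC-1 to 0.508 without NTC-3. In sg2 against NTC the log2 differences of SNORA53, SNORA49, SCARNA7 and SNORA12 changed sign to 1.48, 0.85, 0.47 and 0.59 without sg2-1, and likewise without sg1-3 and sg2-1; SNORA12 passed the threshold only in the second. With all libraries their signs also turned in edgeR (0.70, 0.31, 0.04 and 0.07) and DESeq2 (0.74, 0.35, 0.07 and 0.11), past the threshold in neither. Over single libraries left out, SNORA53, SNORA49 and SCARNA7 ran from -2.32 to 1.48, from -0.71 to 0.85 and from -0.45 to 0.47. Of 1311 values of named members under alternatives, 1073 kept direction and side of the threshold, 60 lost a call, 128 gained one and 7 reversed. Another 43 changed sign without passing in either fit, reaching at most 0.76 in size and moving by at most 1.70.

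With 3 libraries a group, members at few reads (SNORD63B, SNORD67, SNORA14B) are limited by depth.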
